A study of Homo sapiens with 8 samples.

Results

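The heat shock response chaperones are described here through 10 genes, taken by their symbols from the 20531 genes that each deposited table lists. They are HSPA1A and HSPA1B (the inducible HSP70 copies), HSPA8 (the constitutive HSP70), HSPH1 (HSP110), DNAJB1 (HSP40), BAG3 (an HSP70 co-chaperone), HSPB1 (HSP27), HSPD1 and HSPE1 (HSP60 and HSP10 of mitochondria) and HSP90AA1 (the inducible cytosolic HSP90). All 10 were among the 14429 genes kept, those whose value reached 10 in any of the 8 libraries.

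Poly(A) RNA was sequenced from 2 HER2+ breast cancer cell lines, SKBR-3, which is ER-/PR-, and BT474m1, a derivative of BT474 that is ER+/PR+. Both were cultured in RPMI medium with fetal bovine serum. Per the labels, each line received the vehicle DMSO, lapatinib at 300 nM, JQ1 at 300 nM, or lapatinib and JQ1 together at these doses, for 48 h. Lapatinib blocks the kinases EGFR and HER2, and JQ1 displaces BET bromodomain proteins from acetylated chromatin. Each of the 8 groups was 1 library of 1 established line, so no difference within a line could be set against a spread between cultures, and p-values are given only for a fit over both lines together.

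Chaperones bind unfolded or newly made proteins and keep them from aggregating. HSP70 works in cycles in which J-domain proteins such as DNAJB1 start ATP hydrolysis and exchange factors such as HSPH1 and BAG3 release the nucleotide, and HSP90 takes over kinases and other clients late in folding, HER2 among them. In stressed cells the transcription factor HSF1 forms trimers that bind heat shock elements, arrays of inverted GAA units, in the promoters of many of these genes.

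The elements are shown first because they are what the promoters of these genes are best known for, and they mark where the members differ in sequence. The 2-unit element was searched as GAANNTTC or TTCNNGAA, each of which reads the same on both strands, in the RefSeq promoter windows of GRCh38.p14 (300 bases around each start, of which a stretch before the start that holds matches is printed for 7 genes). The 3-unit element adds 1 more inverted unit at the same spacing and therefore contains 2-unit matches. All 10 genes matched a window. Capitals mark the matches, the sequences run 5' to 3' on the strand of the gene, and only 30 bases are shown where transcript annotation reaches into the stretch. HSPA8 has further matches farther before the start, one of them of 3 units, which are not printed.
HSPA1A, chr6:31815423-31815542, plus strand: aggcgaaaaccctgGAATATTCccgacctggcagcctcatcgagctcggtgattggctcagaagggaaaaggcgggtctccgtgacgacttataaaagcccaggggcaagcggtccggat
HSPA1B, chr6:31827618-31827737, plus strand: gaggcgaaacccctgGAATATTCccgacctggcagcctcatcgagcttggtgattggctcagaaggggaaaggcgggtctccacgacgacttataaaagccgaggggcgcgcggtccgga
HSPA8, chr11:123062168-123062197, minus strand: ggccccTTCTGGAAGGTTCtaagatagggt
DNAJB1, chr19:14518408-14518517, minus strand: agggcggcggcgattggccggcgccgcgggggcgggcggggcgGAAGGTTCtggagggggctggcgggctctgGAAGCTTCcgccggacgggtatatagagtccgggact
HSPB1, chr7:76302471-76302590, plus strand: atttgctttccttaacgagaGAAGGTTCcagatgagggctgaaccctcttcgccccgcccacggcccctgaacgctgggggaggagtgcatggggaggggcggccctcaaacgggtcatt
HSPD1, chr2:197500061-197500090, minus strand: gcattTTCTGGAAAGTTCTGGAAccgagcg
HSP90AA1, chr14:102087045-102087164, minus strand: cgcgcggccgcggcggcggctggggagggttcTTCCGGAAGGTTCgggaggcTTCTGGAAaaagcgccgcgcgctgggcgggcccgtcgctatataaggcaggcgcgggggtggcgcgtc

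A 2-unit match stood in the windows of 7 of the 10 genes, against 16.2% of the 27305 genes with a window. HSPA8, HSPD1 and HSP90AA1 also held a 3-unit match, against 0.608% of all genes. In HSPH1, HSPE1 and BAG3 these letters were not found in the window, which says nothing about HSF1 at those genes. HSPD1 and HSPE1 lie head to head, and the nearer of the 2 RefSeq starts of HSPD1 is 105 bases from that of HSPE1. The printed HSPD1 element lies 294 bases at its nearest edge from the HSPE1 start, outside the HSPE1 window. It stands before the farther HSPD1 start, 539 bases from that of HSPE1, and therefore past the nearer one, whose own window held 0 matches. The 250 bases before the starts of HSPA1A and HSPA1B were identical at 235 of 251 aligned positions (93.6%), and the 2-unit match at 106 and 105 bases before the start was shared by both.

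Between 21420109 and 34112362 reads on genes were recovered per library, and the values below are normalised read counts, which the authors brought to a common upper quartile of 1000. A 95% counting interval follows each log2 fold change. It covers counting error only, since PCR copies cannot be told from separate molecules when reads carry no identifiers. The labels of the lines matched their markers. ERBB2 lay between 94678 and 277872 in all 8 libraries, ESR1 between 190.0 and 1827 in BT474m1 and between 1.93 and 16.8 in SKBR-3, the leukocyte marker PTPRC at 3.38 or less and the endothelial marker PECAM1 at 0.583 or less. The fibroblast marker COL1A1 was at 24.1 to 124.0 in SKBR-3 and at 337.0 to 1253 in BT474m1, and its part in the results was not tested.

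Summed over the 10 genes, chaperone transcripts made up less of the library with lapatinib than with DMSO, a sum of which HSPA8 and HSP90AA1 alone held 55.8% to 76.6%. In SKBR-3 they took 0.731% of the total signal under DMSO, 0.381% under lapatinib, 0.778% under JQ1 and 0.376% under both drugs. In BT474m1 the shares were 0.739%, 0.594%, 0.793% and 0.648% in the same order. The other 8 genes together took 0.214%, 0.138%, 0.182% and 0.115% of the signal in SKBR-3, and 0.224%, 0.262%, 0.210% and 0.236% in BT474m1. Without HSPA8 and HSP90AA1 the sum was thus still lower with lapatinib in SKBR-3 but higher in BT474m1, and the JQ1 library, highest in each line over all 10 genes, lay below DMSO in both. In bulk libraries, fewer cells that express a gene and less of its RNA per cell cannot be told apart.

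**Figure D1:**
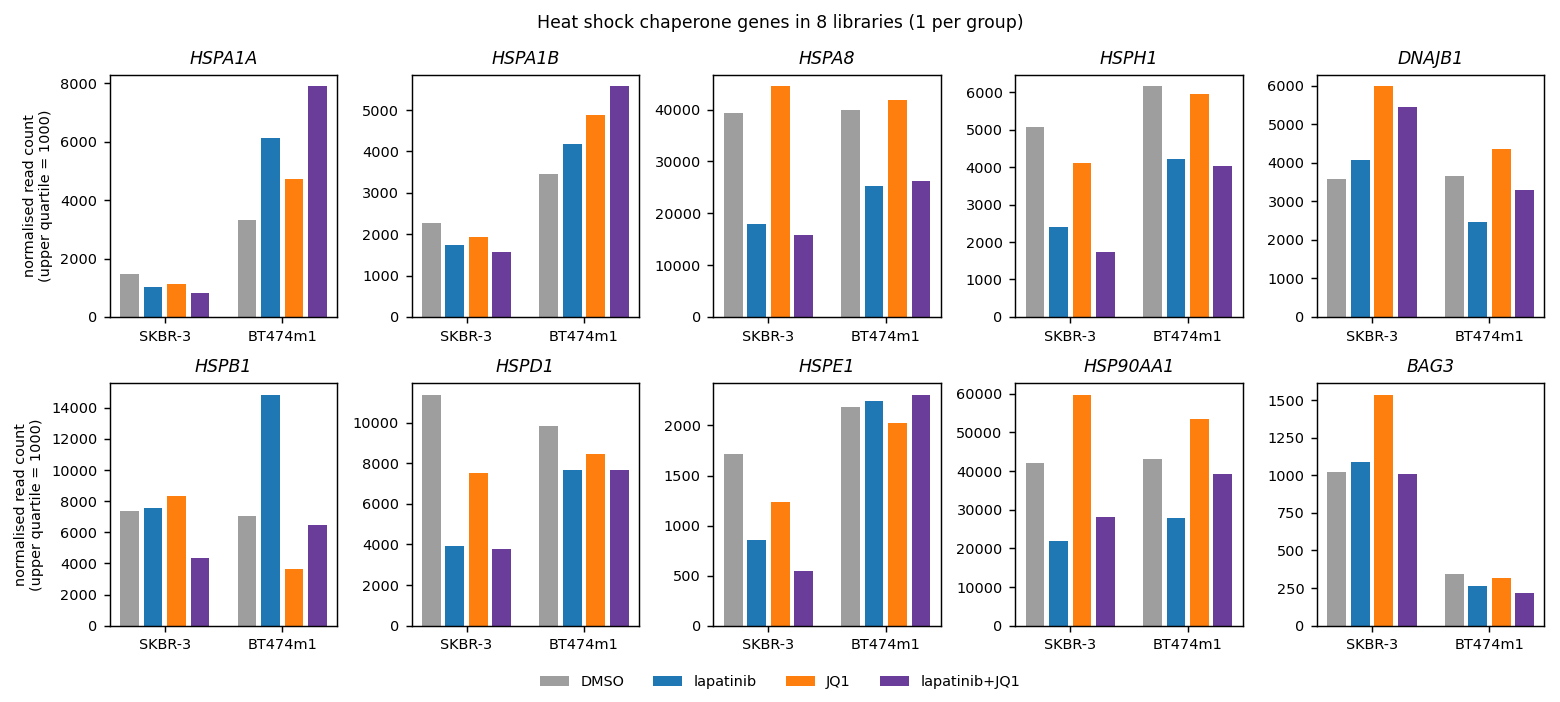
Normalised read count (y axis, upper quartile of 1000) of each of the 10 chaperone genes under the 4 treatments (coloured bars) in SKBR-3 and BT474m1 (x axis), 1 library per bar and no error bars because there are no replicates. In SKBR-3, HSPA8, HSPH1, HSPD1 and HSPE1 stand lower in both libraries with lapatinib than in both without, while HSPA1A and HSPA1B are highest in BT474m1 with both drugs and BAG3 is lower in all 4 BT474m1 libraries.

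The first comparison asked how HER2 kinase inhibition alone altered chaperone expression in SKBR-3. Of the 10 genes, 4 were at least 2-fold lower with lapatinib than with DMSO, where 9.44% of all genes were, and 0 were at least 2-fold higher, where 11.1% of all genes were. These were HSPD1, HSPA8, HSPH1 and HSPE1, and HSP90AA1 fell just short of the threshold at -0.95 (-0.97 to -0.93), and was past it when libraries were scaled to equal totals, which made 5 lower. The call of HSPE1 rests on a log2 fold change of -1.0 whose counting interval of -1.11 to -0.90 spans the threshold. The median over the 10 genes was -0.75, against 0.05 over all genes. HSPA1A (-0.55) and HSPA1B (-0.39) were also below DMSO, whereas DNAJB1 (0.18), BAG3 (0.09) and HSPB1 (0.04) were near it.

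JQ1 alone left every one of the 10 genes within 2-fold of DMSO in SKBR-3. No gene was called higher, where 3.75% of all genes were, or lower, where 11.8% were, and the median was -0.03 against -0.08 over all genes. The 2 highest were the HSP70 partners DNAJB1 at 0.74 (0.69 to 0.79) and BAG3 at 0.58 (0.49 to 0.68), followed by HSP90AA1 at 0.50 (0.49 to 0.52). The lowest was HSPD1 at -0.60 (-0.63 to -0.56).

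With both drugs, the SKBR-3 genes at least 2-fold below DMSO were again HSPE1, HSPD1, HSPH1 and HSPA8, 4 of 10 where 20.8% of all genes were lower, and 0 were higher where 10.8% were. The median was -0.79 against -0.08 over all genes. DNAJB1 was the single member above DMSO, at 0.60 (0.55 to 0.65), with BAG3 at -0.02 (-0.13 to 0.08), or 0.12 when libraries were scaled by the median of ratios. These libraries share the DMSO control with the single drugs, so that the repeated names are not independent of each other.

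In BT474m1, lapatinib gave a mixed pattern. HSPB1 was at least 2-fold higher, 1 of 10 genes where 14.0% of all genes were higher, and 0 were lower where 8.06% were. HSPA1A was at 0.88 and HSPA1B at 0.28, whereas HSPA8 (-0.66), HSP90AA1 (-0.63), DNAJB1 (-0.57) and HSPH1 (-0.55) lay below DMSO. The median over the 10 genes was -0.37, against 0.07 over all genes.

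With JQ1 in BT474m1, 0 genes were called higher, where 4.81% of all genes were, and 0 lower, where 11.8% were. HSPB1 was closest to the threshold at -0.95 (-0.99 to -0.91). HSPA1A and HSPA1B stood at 0.51 and 0.50. With both drugs HSPA1A was at least 2-fold above DMSO, 1 of 10 where 14.2% of all genes were higher, and 0 were lower where 15.3% were. Added to its nearly identical copy HSPA1B, it was at 0.99 (0.96 to 1.02), just short of 2-fold. The medians of the 10 genes were 0.01 with JQ1 and -0.14 with both drugs, against -0.06 and 0.00 over all genes.

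**Figure D2:**
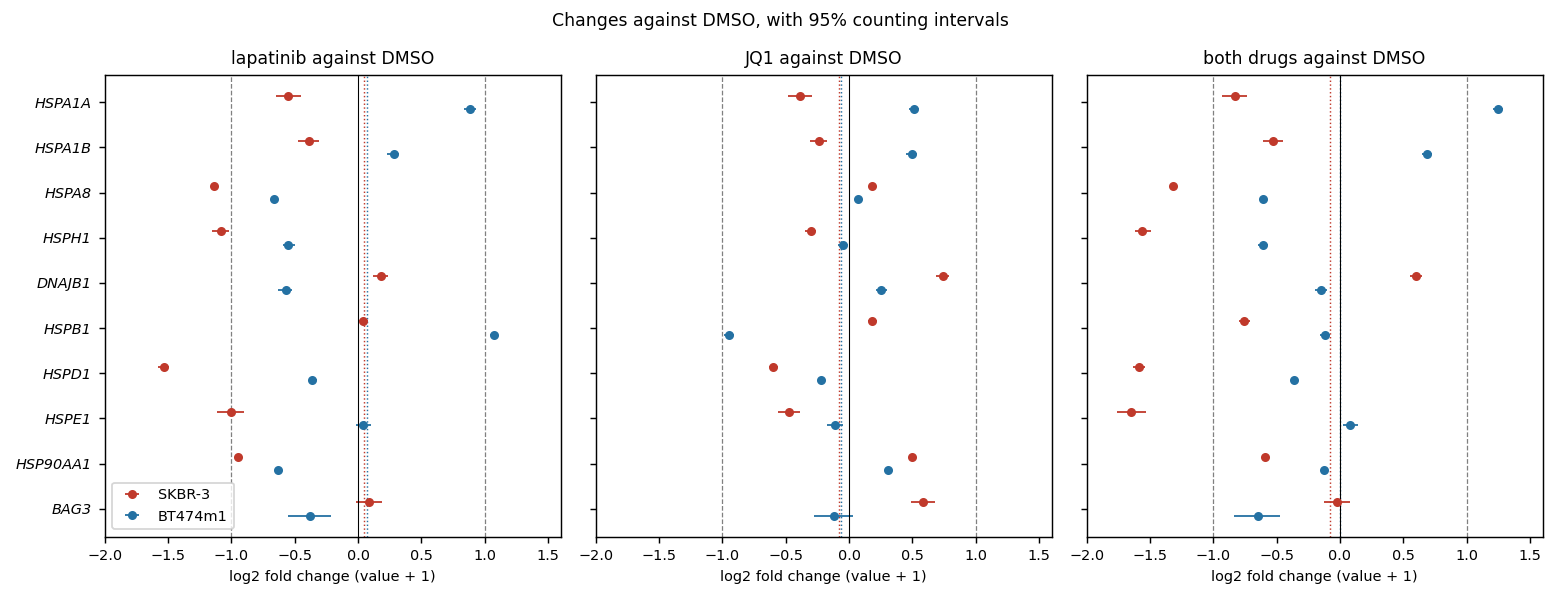
Log2 fold change of value + 1 against DMSO (x axis) for the 10 genes (y axis) with lapatinib, JQ1 and both drugs, in SKBR-3 (red) and BT474m1 (blue). Bars are 95% counting intervals, dashed lines mark 2-fold and dotted lines the median of all genes kept. With lapatinib HSPD1 is at -1.53 in SKBR-3 and HSPB1 at 1.07 in BT474m1.

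Of the 3 HSP70 genes among the 10, the inducible copies HSPA1A and HSPA1B differed more in level between the lines than HSPA8. HSPA1A was at 1482 under DMSO, 1009 under lapatinib, 1134 under JQ1 and 834.0 under both drugs in SKBR-3, and at 3323, 6130, 4730 and 7906 in BT474m1. Every BT474m1 library was above every SKBR-3 library. Within SKBR-3 the DMSO library was the highest and that with both drugs the lowest, and within BT474m1 this order was turned around, with DMSO lowest and both drugs highest.

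HSPA1B was at 2282, 1744, 1933 and 1579 in SKBR-3 and at 3457, 4188, 4875 and 5580 in BT474m1, with DMSO, lapatinib, JQ1 and both drugs in turn. Its libraries took the same highest and lowest places as those of HSPA1A, over a range of 3.53-fold from the lowest to the highest library, against 9.48-fold for HSPA1A. For both genes, all neighbours in the order of the 8 libraries differed beyond counting error. HSPA1A with both drugs was 1.25 (1.21 to 1.29) above DMSO in BT474m1 and fell by 0.83 on the log2 scale in SKBR-3 (-0.93 to -0.73).

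The separate values of the 2 copies are uncertain. Each has 1 exon, their coding sequences were identical at 1919 of 1923 positions (99.8%), and both carry fractional read numbers, a sign that reads were split between features. Added together, HSPA1A and HSPA1B had 3763 under DMSO, 2753 under lapatinib, 3067 under JQ1 and 2413 under both drugs in SKBR-3, and 6780, 10319, 9605 and 13486 in BT474m1. The summed reads of the copies still missed a whole number, by 0.03 to 0.44, so that the sum may also hold parts of reads shared with other features. The sum kept the opposite order of the lines, and under the combination in BT474m1 it lay 0.99 (0.96 to 1.02) above DMSO, close to 2-fold. The ratio of HSPA1B to HSPA1A was 1.54 to 1.89 over the SKBR-3 libraries, and in BT474m1 it was 1.04 under DMSO, 0.683 under lapatinib, 1.03 under JQ1 and 0.706 under both drugs.

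HSPA8, the HSP70 that cells make without stress, had 39362 under DMSO, 17900 under lapatinib, 44525 under JQ1 and 15776 under both drugs in SKBR-3. In BT474m1 it had 39864, 25196, 41870 and 26209. In each line both libraries with lapatinib lay below both libraries without it. The fold change with lapatinib was -1.14 (-1.16 to -1.11) in SKBR-3 and -0.66 (-0.68 to -0.64) in BT474m1, and the DMSO libraries of the lines differed by 0.02 (0.00 to 0.03), or by -0.13 when scaled by the median of ratios.

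The weight of the constitutive against the inducible HSP70 differed between libraries. Per kilobase of transcript, the level of HSPA8 was 11.4 times that of HSPA1A and HSPA1B together in SKBR-3 under DMSO, 7.10 under lapatinib, 15.9 under JQ1 and 7.15 under both drugs. In BT474m1 it was 6.38, 2.64, 4.73 and 2.10 times. The constitutive gene was ahead in all 8 libraries, with its smallest lead in BT474m1 with both drugs.

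HSPH1 exchanges nucleotide on HSP70 and takes part in pulling aggregates apart. It had 5079 under DMSO, 2394 under lapatinib, 4113 under JQ1 and 1726 under both drugs in SKBR-3, and 6169, 4223, 5960 and 4041 in BT474m1. The order DMSO, JQ1, lapatinib, both drugs from high to low held in each line, over a range of 2.94-fold in SKBR-3 and 1.53-fold in BT474m1. With both drugs it was at -1.56 (-1.62 to -1.49) in SKBR-3, and at -0.61 (-0.65 to -0.57) in BT474m1. SKBR-3 with JQ1 could not be told from BT474m1 with lapatinib or with both drugs within counting error.

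DNAJB1, the J-domain protein that hands clients to HSP70, had 3591 under DMSO, 4066 under lapatinib, 5996 under JQ1 and 5456 under both drugs in SKBR-3. In BT474m1 it had 3662, 2461, 4371 and 3296. The JQ1 library was the highest in each line, and the lowest was DMSO in SKBR-3 and lapatinib in BT474m1. With DMSO the lines differed by 0.03 (-0.02 to 0.08), which is within counting error, or by -0.12 when scaled by the median of ratios. The fold change with lapatinib was 0.18 (0.12 to 0.24) in SKBR-3 and -0.57 (-0.63 to -0.52) in BT474m1.

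BAG3 joins HSP70 to small heat shock proteins and to selective autophagy. It had 1025 under DMSO, 1090 under lapatinib, 1535 under JQ1 and 1009 under both drugs in SKBR-3, and 344.0, 264.0, 316.0 and 219.0 in BT474m1. All 4 SKBR-3 libraries were above all 4 BT474m1 libraries, and with 375 to 2383 reads per library BAG3 was among the least precisely counted of the 10. In SKBR-3, neighbours among lapatinib, DMSO and both drugs did not differ beyond counting error, and the same held for DMSO and JQ1 in BT474m1. Set directly against lapatinib in SKBR-3, both drugs were at -0.11 (-0.22 to -0.00), at the edge of counting error.

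HSPB1 holds unfolded proteins in oligomers without using ATP. It had 7354 under DMSO, 7573 under lapatinib, 8357 under JQ1 and 4357 under both drugs in SKBR-3. In BT474m1 it had 7064, 14834, 3664 and 6500. The 2 lines were alike with DMSO, at -0.06 (-0.09 to -0.02), and the treatments then spread HSPB1 over 4.05-fold in BT474m1, the widest range within a line of the 10 genes. There the lapatinib library was the highest, at 1.07 (1.04 to 1.10) above DMSO, and the JQ1 library the lowest.

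HSPB1 also has a listed pseudogene, HSPB1P1, whose values were 12.4% to 14.8% of those of HSPB1 in every library. Its fold changes were the closest of all genes to those of HSPB1. Whether these are reads of HSPB1 placed on the copy was not tested. The values of HSPB1 itself were whole numbers of reads to within 0.01.

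HSPD1 forms the mitochondrial folding chamber and HSPE1 its lid. HSPD1 had 11370 under DMSO, 3935 under lapatinib, 7513 under JQ1 and 3783 under both drugs in SKBR-3, and 9818, 7670, 8458 and 7648 in BT474m1. It had the lowest fold change of the 10 with lapatinib in SKBR-3, -1.53 (-1.58 to -1.49), which placed it at the percentile of 5.1 among all genes. In BT474m1 the same contrast was -0.36 (-0.39 to -0.32), and the libraries with lapatinib and with both drugs could not be told apart.

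HSPE1 had 1715, 856.0, 1234 and 548.0 in SKBR-3 and 2183, 2242, 2025 and 2306 in BT474m1, with DMSO, lapatinib, JQ1 and both drugs in turn. In SKBR-3 the order matched that of HSPD1, and with both drugs HSPE1 had the lowest fold change of the 10, -1.65 (-1.76 to -1.53). In BT474m1 the treatments covered a range of only 1.14-fold, the narrowest of the 10 within a line. There neighbours among DMSO, lapatinib and both drugs did not differ beyond counting error. Set directly against DMSO, the library with both drugs did, at 0.08 (0.02 to 0.14). Both genes carried fractional reads that missed a whole number by nearly the same amount in each library and summed to whole reads within 0.01, so some reads were divided between them.

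The 2 subunits did not keep a fixed ratio. Per kilobase, HSPD1 was at 1.65 times the level of HSPE1 in SKBR-3 under DMSO, 1.14 under lapatinib, 1.51 under JQ1 and 1.71 under both drugs. In BT474m1 the ratios were 1.12, 0.849, 1.04 and 0.823. The lowest ratio of each line was in a library with lapatinib, but so was the highest of SKBR-3, 1.71 under both drugs. Some reads were divided between the 2 genes, which limits what their ratio shows.

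HSP90AA1 encodes the stress-responsive HSP90 of the cytosol. It had 42219 under DMSO, 21838 under lapatinib, 59734 under JQ1 and 28040 under both drugs in SKBR-3, and 43019, 27855, 53449 and 39369 in BT474m1. The same order held in each line, with JQ1 highest, then DMSO, both drugs and lapatinib. JQ1 alone was at 0.50 (0.49 to 0.52) in SKBR-3 and 0.31 (0.30 to 0.33) in BT474m1, and lapatinib alone at -0.95 and -0.63 (-0.64 to -0.61).

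Per kilobase of transcript, the same 3 genes led all 8 libraries, namely HSPA8, HSP90AA1 and HSPB1. With DMSO the levels per kilobase were 17386, 13079 and 9465 in SKBR-3 and 17608, 13327 and 9091 in BT474m1. With lapatinib HSPB1 took the first place in both lines, at 9746 in SKBR-3 and 19091 in BT474m1, ahead of HSPA8 at 7907 and 11129. The lowest level was that of BAG3 in the 4 BT474m1 libraries, at 85.4 to 134.0 per kilobase.

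The question of what each drug added to the other was asked by comparing both drugs with each single drug. When JQ1 was added to lapatinib, 0 of the 10 SKBR-3 genes were 2-fold higher and 0 lower, where 3.22% and 16.2% of all genes were. HSPB1 at -0.80 (-0.84 to -0.75) and HSPE1 at -0.64 (-0.78 to -0.51) were the lowest, and DNAJB1 at 0.42 (0.37 to 0.47) and HSP90AA1 at 0.36 (0.34 to 0.38) the only members above lapatinib alone, although HSPA1B, HSPD1 and BAG3 also came above it, by 0.02 to 0.10, with the scaling by the median of ratios. In BT474m1, HSPB1 was lower at -1.19 (-1.22 to -1.16), 1 of 10 where 12.5% of all genes were lower, and 0 were higher where 5.2% were. DNAJB1 was at 0.42 (0.36 to 0.48) and HSP90AA1 at 0.50 (0.48 to 0.52) there. Both genes were thus above lapatinib alone in each line.

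Adding lapatinib to JQ1 gave lower values for all 10 genes in SKBR-3. At least 2-fold lower were HSPA8 at -1.50 (-1.52 to -1.48), HSPH1 at -1.25 (-1.32 to -1.19), HSPE1 at -1.17 (-1.29 to -1.05) and HSP90AA1 at -1.09 (-1.11 to -1.07), 4 of 10 where 12.3% of all genes were lower. None was 2-fold higher, where 9.79% were, and HSPD1 fell just short of the threshold at -0.99 (-1.04 to -0.94). The median was -0.96, against 0.00 over all genes. In BT474m1, 0 genes were 2-fold higher and 0 lower, where 12.4% and 7.27% of all genes were, with HSPB1 at 0.83 (0.78 to 0.87) and HSPA1A at 0.74 (0.70 to 0.78) as the highest and HSPA8 at -0.68 (-0.69 to -0.66) as the lowest.

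**Figure D3:**
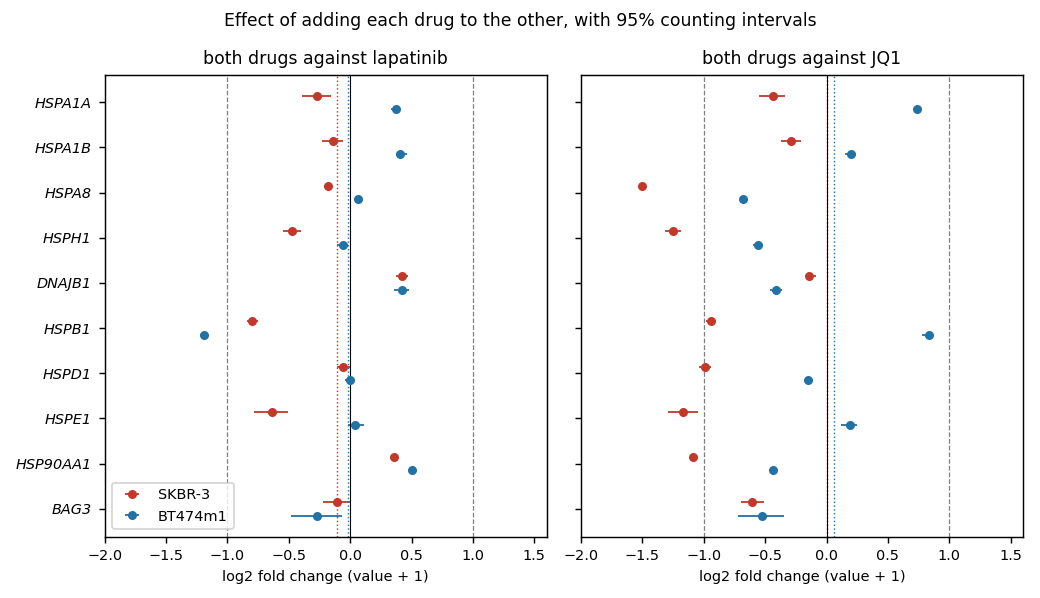
Log2 fold change of value + 1 (x axis) with both drugs against lapatinib alone and against JQ1 alone for the 10 genes (y axis), in SKBR-3 (red) and BT474m1 (blue), with 95% counting intervals, dashed lines at 2-fold and dotted lines at the median of all genes kept. Against JQ1 alone all 10 SKBR-3 genes lie below 0, from -0.14 for DNAJB1 to -1.50 for HSPA8. Against lapatinib alone DNAJB1 and HSP90AA1 lie above 0 in both lines and HSPB1 below it in both.

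To see whether the drugs added up, the log2 fold change under the combination was compared with the single-drug values added together. The difference from that sum reached 2-fold for 0 of the 10 genes in each line. Over all genes, 3.9% lay 2-fold above the sum and 7.58% below it in SKBR-3, and 4.72% and 4.73% in BT474m1. HSPB1 in SKBR-3 came closest, since the single drugs sum to 0.23 and both together gave -0.76, a difference of -0.98. BAG3 in SKBR-3 followed at -0.69, and HSPD1 there lay above its sum by 0.54. In BT474m1 all 10 differences were between -0.24 and 0.21.

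With DMSO alone, the lines differed in few of these genes. HSPA1A was at least 2-fold higher in BT474m1 at 1.16 (1.09 to 1.24), 1 of 10 where 26.8% of all genes were higher, but the nearly identical copies HSPA1A and HSPA1B added together differed by 0.85 (0.80 to 0.90), short of 2-fold. BAG3 was lower there at -1.57 (-1.71 to -1.45), 1 of 10 where 15.6% of all genes were lower. HSPA1B was at 0.60 (0.54 to 0.66) and HSPE1 at 0.35 (0.28 to 0.42), and the remaining 6 lay between -0.21 and 0.28.

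The average effect of each drug over both lines was asked of a fit with limma to all 8 libraries. Line, lapatinib and JQ1 were its terms, and each drug was compared between the 4 libraries with it and the 4 without it. It has no term for a drug effect that differs between the lines, so a gene that passed is not shown to change in each line. With lapatinib 4 of the 10 genes were lower at a Benjamini-Hochberg adjusted p under 0.05, where 12.5% of all genes were. None, or 0, were higher, where 14.7% were, and 0 also at an unadjusted p under 0.05, where 3277 of the 14429 genes were. HSPA8 fell by 0.99 on the log2 scale (SE 0.17, adjusted p = 0.00505, limma) and HSPH1 by 0.86 (SE 0.15, adjusted p = 0.00592). HSP90AA1 fell by 0.78 (SE 0.15, adjusted p = 0.00836) and HSPD1 by 0.76 (SE 0.22, adjusted p = 0.0355). HSPA8, HSPH1 and HSP90AA1 passed also when any 1 of the 8 libraries was left out, with adjusted p of 0.0338 or less, whereas HSPD1 passed in 3 of the 8 such fits and missed without any of the SKBR-3 libraries or the BT474m1 lapatinib library, with adjusted p up to 0.101. HSPE1 was at -0.49 (SE 0.25, adjusted p = 0.181, limma), and at -0.25 without the SKBR-3 library or -0.72 (adjusted p = 0.054) without the BT474m1 library treated with both drugs.

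With JQ1 the same fit with limma called 0 of the 10 genes higher, where 4.84% of all genes were, and 0 lower, where 10.7% were. HSPB1 was at -0.69 (SE 0.32, adjusted p = 0.184, limma). With 1 library left out, HSPB1 passed as lower in 1 of the 8 fits and DNAJB1 as higher in 1. Over all 8 libraries at an unadjusted p under 0.05, 0 were lower, where 3029 of the 14429 genes were, and 2 were higher, where 1607 were. These 2 were DNAJB1 at 0.46 (SE 0.14, adjusted p = 0.0609, limma) and HSP90AA1 at 0.42 (SE 0.15, adjusted p = 0.0975). The fit has 4 residual degrees of freedom, and what it takes as error is how far the lines and the combination depart from a common effect of each drug, not a spread between repeated cultures. When a term for lapatinib with JQ1 was added, which leaves 3, 0 of the 10 genes passed for either drug with limma. Few of all genes passed there either, 2.92% lower and 1.73% higher with lapatinib, and 0.0416% lower and 0.0139% higher with JQ1. At an unadjusted p under 0.05, the same 4 were lower with lapatinib, where 1517 of the 14429 genes were. With JQ1 0 changed, where 768 were higher and 1433 lower. For lapatinib without JQ1, HSPA8 was at -0.90 and HSPH1 at -0.82, each with an adjusted p of 0.101 by limma. HSP90AA1 was at -0.79 and HSPD1 at -0.94.

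In 17 of the 50 combinations of a gene and a drug contrast the lines lay on opposite sides of the comparison library with counting intervals that excluded 0, where 11.6% of such combinations over all genes did. Counting intervals narrow with the level, and over the 5930 genes that reached 1000 in a library, as all 10 did, the share was 17.3%. HSPA1A and HSPA1B, copies that are not separate evidence, gave 10 of the 17, and the other 8 genes gave 7 of 40 (17.5%), near that share.

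The responses of the members to the 6 drug treatments against DMSO were also compared with each other, as the root mean square difference of their log2 fold changes over those 6 contrasts, which share 1 DMSO library in each line. Among the 10 genes, HSPA8 and HSPH1 were closest at 0.23, then HSPH1 and HSPD1 at 0.26, HSPD1 and HSPE1 at 0.33, and HSPA1A and HSPA1B at 0.37. The farthest were DNAJB1 and HSPD1 at 1.28. The members thus did not move as 1 block, and the distance between the 2 mitochondrial subunits was larger than that between HSPH1 and HSPD1.

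Over 11757 genes with a value of 100 or more, the 3 nearest to any member never included another member. Since the other members are very few among so many genes, this does not say that they lack a shared response. The closest were ZNF107 at 0.08 and MRPL18 (a mitochondrial ribosomal protein) at 0.09 for HSPH1, IQGAP1 (a scaffold protein) at 0.08 for DNAJB1 and HSPB1P1 at 0.07 for HSPB1. For HSPA8 the nearest was PSMD2, a proteasome subunit, at 0.14. HPRT1, a purine salvage enzyme, was nearest to HSPE1 at 0.14, and XPO1, an exporter of nuclear proteins, was second for HSPD1 at 0.21 after C20orf27 at 0.15. Nearest to HSPA1A was ANKRD23 at 0.13, to HSPA1B GPAM at 0.12, to HSP90AA1 ILKAP at 0.12 and to BAG3 AIMP2 at 0.12.

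The other genes of the chaperone system were taken from 10 lists with 83 members, of which 77 were kept. Not kept were HSPA6, HSPB2, HSPB3, HSPB6, HSPB9 and CRYAA. With lapatinib in SKBR-3, 13 of the 77 were at least 2-fold lower and 3 higher, where 9.44% and 11.1% of all genes were, with a median of -0.39 against 0.05. In BT474m1 3 were lower and 5 higher, where 8.06% and 14.0% of all genes were, with a median of -0.17 against 0.07. With both drugs 22 were lower and 2 higher in SKBR-3 (20.8% and 10.8% of all genes), and 9 lower and 4 higher in BT474m1 (15.3% and 14.2%). With JQ1 3 were lower and 1 higher in SKBR-3 (11.8% and 3.75% of all genes), and 5 lower and 2 higher in BT474m1 (11.8% and 4.81%). Some of the 77 were kept only through the other line. Over genes that reached 10 in a library of the contrast itself, the count lower with JQ1 in BT474m1 was 3 of 74 and the other counts were as given, and of the 13 lower with lapatinib in SKBR-3, 12 had a counting interval that excluded 0.

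HSF1, the main activator of the response, was within 2-fold of DMSO under every treatment. It had 1347 under DMSO, 1562 under lapatinib, 1215 under JQ1 and 1764 under both drugs in SKBR-3, and 1485, 1994, 1097 and 1416 in BT474m1. HSF1 was above DMSO with lapatinib and below it with JQ1 in each line. HSF2, a related factor, was at -0.09 (-0.29 to 0.10) with lapatinib and 0.24 (0.06 to 0.42) with JQ1 in SKBR-3, and at -0.19 (-0.33 to -0.06) and 0.47 (0.36 to 0.58) in BT474m1. HSF4, the remaining factor kept and chosen after its values were seen, had 390.0 under DMSO, 1649 under lapatinib, 296.0 under JQ1 and 823.0 under both drugs in BT474m1. It was the 1 factor past 2-fold there, at 2.08 (1.97 to 2.19) with lapatinib and 1.07 (0.95 to 1.2) with both drugs. In SKBR-3 it was low, at 7.09 to 25.1, and with DMSO BT474m1 was 4.62 (4.08 to 5.4) higher. Transcript levels of these factors do not report their activity.

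HSP90AB1, the constitutive cytosolic HSP90, had 21571 under DMSO, 12200 under lapatinib, 19950 under JQ1 and 13321 under both drugs in SKBR-3. In BT474m1 it had 25017, 20682, 24515 and 20099. Both libraries with lapatinib were the lower ones in each line, as for HSP90AA1. With JQ1 it lay nearer to DMSO than HSP90AA1 did, at -0.11 (-0.14 to -0.09) in SKBR-3 and -0.03 (-0.05 to -0.01) in BT474m1.

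By class, the HSP90 co-chaperones and the CCT chaperonin, the cytosolic ring that folds actin and tubulin, lay low with lapatinib in SKBR-3, where 9.44% of all genes were at least 2-fold lower and the median of all genes was 0.05, against 8.06% and 0.07 in BT474m1. All 8 CCT subunits were below DMSO, 2 of them at least 2-fold, with a median of -0.78, and in BT474m1 7 of the 8 were, with a median of -0.49 and CCT2 at 0.01, which is less than the shift of -0.05 that the median of ratios gives there. CCT5 was lowest in SKBR-3 at -1.48 (-1.53 to -1.44), and with both drugs it was at -1.72 (-1.77 to -1.68) there and -1.06 (-1.08 to -1.03) in BT474m1. Of the 13 HSP90 co-chaperones, 5 were at least 2-fold lower with lapatinib in SKBR-3, with a median of -0.72, and 0 in BT474m1, with a median of -0.34. The other 10 HSP70 and HSP110 genes kept had a median of -0.90 in SKBR-3, with 4 at least 2-fold lower, one of which, HSPA12B at -1.02 (-2.44 to 0.06), had 9 reads against 21 and an interval that includes 0. The 9 of them that reached 10 in BT474m1 had a median of -0.55 there, with 2 at least 2-fold lower. HSPA5, the HSP70 of the endoplasmic reticulum, went the other way in BT474m1, from 8781 under DMSO to 19130 under lapatinib, 1.12 (1.10 to 1.15) higher, and was at 0.01 (-0.02 to 0.05) in SKBR-3. Of the 3 other small heat shock genes that reached 10 with DMSO or lapatinib in BT474m1, HSPB8 was at least 2-fold higher. HSPB7 was too, at 1.58 (0.90 to 2.50), but with 9.43 under DMSO and 30.1 under lapatinib it reached 10 only through the library where it was high. HSPB11, at 0.09 (-0.05 to 0.22), did not differ beyond counting error. In SKBR-3 CRYAB was higher at 1.15 (0.85 to 1.47), HSPB8 lower at -1.13 (-1.83 to -0.53), and HSPB7 and HSPB11 were at -0.38 and -0.42. Over all genes 14.0% were at least 2-fold higher in BT474m1 and 11.1% in SKBR-3. Of the other J-domain genes, 8 lay above DMSO and 6 below it in SKBR-3 with a counting interval that excluded 0, among 16 that reached 10 there, and 8 and 7 of 17 in BT474m1.

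Of the 77 genes, 8 changed at least 2-fold in the same direction in both lines under at least 1 treatment, with a value of 100 or more in each line, or 10.4%, where 9.22% of all genes did. Of the 10 members 0 did. HSPA4L, an HSP110 relative, was at -1.47 (-1.61 to -1.34) with lapatinib in SKBR-3 and -2.08 (-2.65 to -1.63) in BT474m1. With both drugs the exchange factor HSPBP1 was at -1.55 (-1.70 to -1.40) and -1.15 (-1.33 to -0.98). The J-domain gene DNAJC7 was at -1.06 (-1.13 to -0.99) and -1.35 (-1.46 to -1.24) under the same treatment. CCT5, given above, belongs to this set.

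In mitochondria, the protease gene CLPP was at -1.73 (-1.91 to -1.57) with JQ1 in SKBR-3 and -2.02 (-2.22 to -1.84) in BT474m1, and with both drugs at -2.02 (-2.22 to -1.84) and -2.36 (-2.60 to -2.14). LONP1, another mitochondrial protease, was at -1.06 (-1.15 to -0.96) and -1.30 (-1.39 to -1.21) with both drugs. HSPD1 and HSPE1 were at -0.60 and -0.47 with JQ1 in SKBR-3 and at -0.22 and -0.11 in BT474m1, nearer to DMSO than CLPP in each line.

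Higher in both lines were CLU and IER5. CLU, a secreted chaperone, had 5525 under DMSO, 13679 under lapatinib, 6439 under JQ1 and 14258 under both drugs in SKBR-3, and 3740, 10411, 5751 and 12779 in BT474m1. Its libraries with lapatinib were the highest in each line. IER5, a regulator of HSF1, was at 1.09 (0.97 to 1.2) with JQ1 in SKBR-3 and 1.5 (1.33 to 1.69) in BT474m1.

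HSPB8, the partner of BAG3, was chosen after its values were seen. It had 51.5 under DMSO, 23.0 under lapatinib, 32.9 under JQ1 and 22.7 under both drugs in SKBR-3, and 41.0, 399.0, 17.4 and 28.0 in BT474m1. The BT474m1 lapatinib library stood apart at 3.25 (2.96 to 3.62) above DMSO, and HSPB1, a gene of the same family, was also highest in that library.

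**Figure D4:**
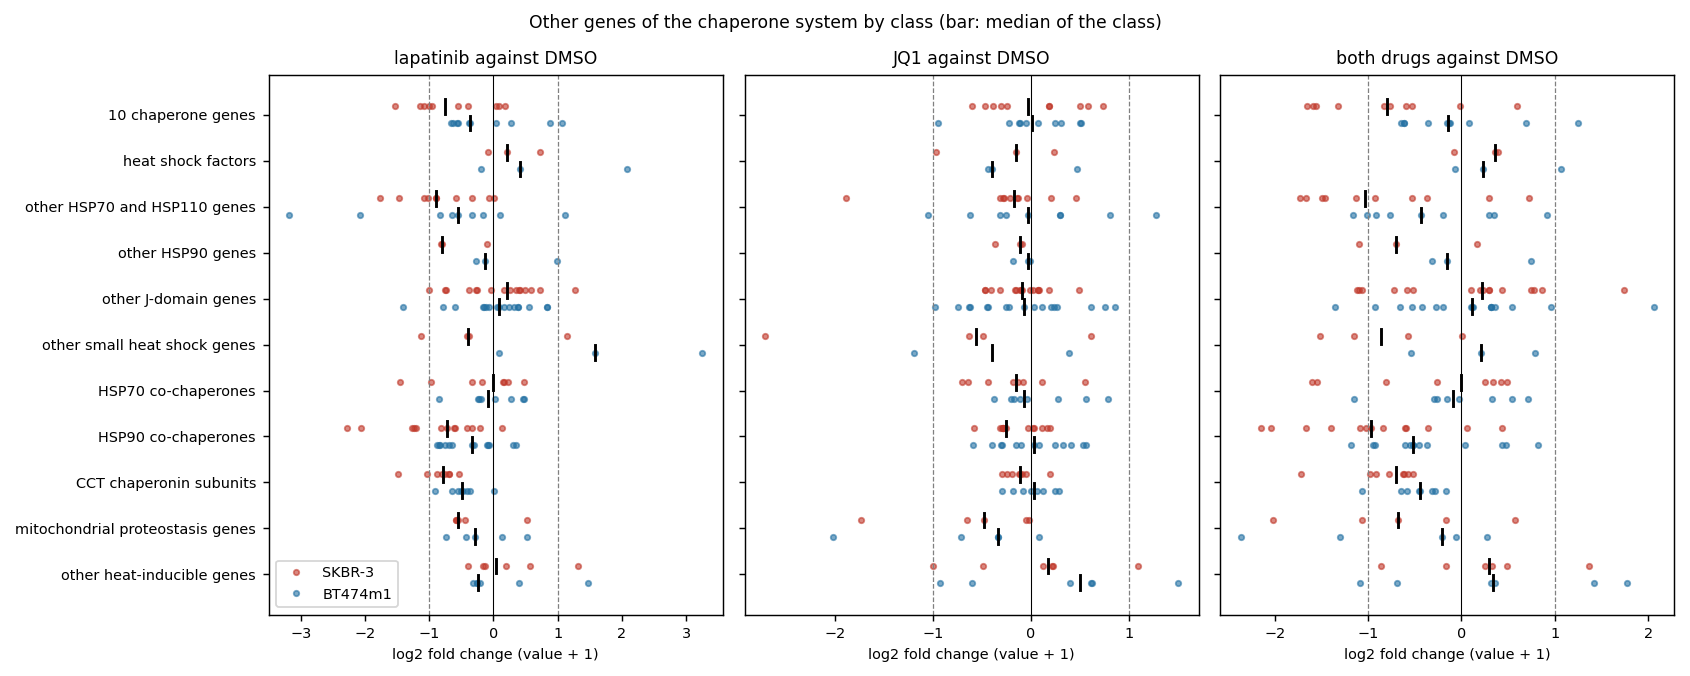
Log2 fold change of value + 1 against DMSO (x axis) of the 10 genes and of the other chaperone system genes by class (y axis) with lapatinib, JQ1 and both drugs. Each point is 1 gene that reached 10 in a library of the contrast, in SKBR-3 (red) or BT474m1 (blue), the bar is the median of the class and dashed lines mark 2-fold. With lapatinib the CCT subunits have medians of -0.78 in SKBR-3 and -0.49 in BT474m1, and HSPB8 is the farthest to the right in BT474m1 at 3.25.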

How the data were processed

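Per the labels, the 8 libraries are poly(A) RNA of 2 lines with 4 treatments, 1 per group. The authors deposited a signal per gene, RSEM read counts scaled by upper quartile to 1000. The submitters' processing notes name Picard 1.88, SAMtools 1.2, RSEM, R 3.2.2 and hg19 without giving their roles. The study's methods name hg38, STAR and Salmon, so build and annotation are uncertain here, and whether counting used strand is not given in the sources used here. The labels give 48 h, and the methods text a shorter treatment for the lines in general.

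The value of 1 read was found as the common step between values (0.471 to 0.766 units). With it, 84.6% to 85.2% of values below 400 reads were whole within 0.02, so no count model was used. Calculations were run in Python 3.11.15 (scipy 1.17.1, pandas 2.3.3, numpy 2.4.6, matplotlib 3.10.9). Genes at 10 or more in at least 1 library were kept (14429, with 6102 removed). Fold changes are differences of log2(value + 1), which understate changes of low genes, and 2-fold counts as changed. The 95% intervals are exact Clopper-Pearson intervals of the share of recovered reads. The floor of 3 reads was 1.41 to 2.30 units. With 1 library per group, no difference within a line was tested. The average effect of each drug over both lines was tested with limma 3.58.1 (R 4.3.3) on log2(value + 1) of the genes kept. Terms were line, lapatinib and JQ1, with a mean-variance trend and Benjamini-Hochberg adjustment over all genes. This fit was added after the data were seen. Both calculations were checked on simulated reads, which bears on no difference between cultures.

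Levels per kilobase use the length of the canonical transcript of GENCODE 44. Promoters are from RefSeq. Named genes are the 10 members, HSF1, HSF2, HSP90AB1, listed genes with 100 or more that changed at least 2-fold the same way in both lines, and for each member the 3 genes nearest in response, of which some are named. HSPA5, HSPA12B, CCT2, HSF4, HSPB7, HSPB8, HSPB11 and CRYAB were named after their values were seen. Members and lists were chosen with earlier results of these data known. Alternatives were equal totals or the median of ratios as the scaling, a pseudocount of 10, no filter, a filter at 100, a threshold of 1.5-fold, and HSPA1A and HSPA1B as 1 gene, and for the fit over both lines a lapatinib by JQ1 term and each library left out in turn.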

Additional observations from a re-analysis of the deposited data

Results flagged for a closer look

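For 17 combinations of a chaperone gene and a contrast, the 2 lines lay on opposite sides of the control, each with a counting interval that excluded 0. They are 34.0% of the 50 combinations, against 11.6% over all genes kept and 17.3% over genes that reached 1000 in a library. Without HSPA1A and HSPA1B they are 7 of 40 (17.5%). The difference of the log2 fold changes, BT474m1 minus SKBR-3, is given for each, and with 1 library per line it was not tested. The contrasts of a line share libraries, so these values are not independent of each other.

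HSPA1A was above the comparison library in BT474m1 and below it in SKBR-3 in all 5 contrasts, and so was HSPA1B. For HSPA1A the difference against DMSO was 1.44 for lapatinib, 0.89 for JQ1 and 2.08 for the combination, and that of the combination was 0.64 against lapatinib and 1.18 against JQ1. For HSPA1B it was 0.66, 0.73, 1.22, 0.56 and 0.49 in the same order, and scaled by the median of ratios its SKBR-3 value with both drugs against lapatinib was 0.02 in place of -0.14. The 2 copies share nearly all of their coding sequence, so they are not separate evidence.

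DNAJB1 was lower in BT474m1 and higher in SKBR-3 against DMSO, by a difference of -0.75 with lapatinib and -0.76 with both drugs. HSPB1 differed by -1.13 with JQ1 against DMSO, with BT474m1 below and SKBR-3 above, and by 1.77 with both drugs against JQ1, with BT474m1 above and SKBR-3 below. HSPE1 differed by 1.72 with both drugs against DMSO and by 1.36 against JQ1, with BT474m1 above in each. HSPA8 differed by 0.24 with both drugs against lapatinib, from -0.18 in SKBR-3 and 0.06 in BT474m1. Scaled by the median of ratios these were -0.02 and 0.09, a smaller difference between the lines.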

How the results depend on the processing

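A pseudocount of 10, both other scalings, no filter and a filter at 100 kept every count of members past 2-fold within 1.5 times its value, although the count lower with lapatinib in SKBR-3 was 3 with a pseudocount of 10, when HSPE1 drops out, and 5 with equal totals, when HSP90AA1 comes in. Counted as 1 gene, HSPA1A and HSPA1B left 0 members higher with both drugs in BT474m1 and 0 higher between the DMSO libraries. At 1.5-fold the counts rose. In SKBR-3 they were 1 higher and 1 lower with JQ1 (9.49% and 21.5% of all genes), and 1 higher and 7 lower with both drugs (21.5% and 31.9%). With both drugs 2 were lower against lapatinib (27.0% of all genes) and 7 lower against JQ1 (23.0%). In BT474m1 they were 2 higher and 2 lower with lapatinib (24.8% and 15.6% of all genes), and 1 lower with JQ1 (21.1%). With both drugs 2 were higher and 3 lower against DMSO (24.8% and 24.6%), and 2 higher and 1 lower against JQ1 (22.4% and 14.5%). Between the DMSO libraries 2 were higher (37.4%). The looser threshold by its construction calls more genes. With lapatinib in SKBR-3 it called 0 members higher and 5 lower, and 23.2% and 18.8% of all genes. At 2-fold, where 11.1% and 9.44% were called, a pseudocount of 10 called 7.12% and 6.85%.

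Scaling by the median of ratios moved the median of all genes by 0.11 (both drugs against lapatinib in SKBR-3) and -0.15 (between the DMSO libraries), and equal totals moved it by -0.14 (JQ1 in SKBR-3). Changes of sign were limited to members near 0, such as BAG3 with both drugs in SKBR-3 (-0.02, and 0.12 by the median of ratios) and HSPB1 with lapatinib there (0.04, and -0.01 with equal totals). The labels give no replicate numbers to pair samples by, and the fit over both lines has line as its block. Its alternatives were chosen after seeing the data. The 4 members lower with lapatinib became 0 with a lapatinib by JQ1 term, where the share of all genes called lower fell from 12.5% to 2.92%. Their log2 fold changes in that fit ran from -0.79 to -0.94. The members lower were 4 under a pseudocount of 10, both other scalings and a filter at 100, where 11.7% to 15.2% of all genes were. Leaving out 1 library gave 3 to 4 members lower with lapatinib, where 8.08% to 11.4% of all genes were. With JQ1 0 to 1 were higher (DNAJB1 without the BT474m1 DMSO library, adjusted p = 0.0471 by limma), where 1.66% to 2.91% of all genes were. With JQ1 0 to 1 were lower (HSPB1 without the SKBR-3 JQ1 library, adjusted p = 0.0221 by limma), where 5.35% to 8.13% were. Without the SKBR-3 DMSO library BAG3 was among the 4 lower with lapatinib in place of HSPD1.

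The lowest count of these genes was 375 reads, and counting error decided some statements: the HSPE1 call with lapatinib in SKBR-3, and the order of neighbouring libraries for HSPH1, DNAJB1, HSPD1, HSPE1, HSP90AA1 and BAG3. The spread between cultures is unknown, so no difference within a line is shown to exceed it.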
